A study of Mus musculus with 3 samples.

Results

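The 8 genes described here encode the ubiquitous subunits of V1, the cytosolic sector of the vacuolar proton pump (V-ATPase): Atp6v1a, Atp6v1b2, Atp6v1c1, Atp6v1d, Atp6v1e1, Atp6v1f, Atp6v1g1 and Atp6v1h. They were chosen by name, and every probe set that the array annotation gives to 1 of these symbols alone was used, which made 19 probe sets of 20380 and 8 genes of 12393. Expression had been measured on Affymetrix arrays in 3 cultures of bone marrow cells from C57/BL6 mice, 1 array each. All cultures had first been grown for 3 days with hM-CSF at 50 ng/ml, which the labels say makes macrophages, and the groups then had hRANKL at 150 ng/ml for 0 h (labelled precursor), 24 h (labelled differentiating precursor) or 72 h (labelled osteoclast). The labels give neither the age or sex of the mice nor whether animals were pooled, and a culture held as long without hRANKL is not among the samples, so hRANKL and time in culture cannot be told apart.

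The V-ATPase is a rotary motor that spends ATP to move protons across a membrane. V1 holds the catalytic head, where subunits A and B alternate, a central rotor with subunits D and F, peripheral stalks of subunits E and G that keep the head from turning, and subunits C and H, which join V1 to the membrane sector V0 and control whether the sectors stay assembled. In most cells the pump acidifies endosomes and lysosomes, and in osteoclasts it is also sent to the ruffled border, where it acidifies the space in which bone mineral dissolves.

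Each of the 8 V1 genes was higher at 72 h than at 0 h by 2-fold or more, from 2.59-fold (Atp6v1g1) to 4.90-fold (Atp6v1d), and the median was 1.77 as a log2 difference. Against a background of 12.5% of measured genes at least 2-fold higher and 12.8% at least 2-fold lower in that comparison, 8 of 8 V1 genes were higher and 0 lower. On the median-centred scale used here the increase was mostly late. At 24 h against 0 h 1 of 8 genes, Atp6v1c1, was at least 2-fold higher, a share near the 13.2% of all measured genes. At 72 h against 24 h 6 of 8 were at least 2-fold higher, against 6.92% of all measured genes. There were no replicates, so these differences carry no test, and the error given is technical: the SD over genes of how far 2 probe sets for 1 gene differ in a comparison, divided by the square root of 2. On the log2 scale it was 0.41 for the early comparison (24 h against 0 h), 0.36 for the late one (72 h against 24 h) and 0.49 for the whole course (72 h against 0 h). In the brightest 25% of those genes, ranked by the mean of their 2 probe sets, these errors were 0.33, 0.27 and 0.42. All 8 V1 genes reached that range by their brightest probe set alone. Atp6v1f and Atp6v1h have 1 probe set each and so no pair. For Atp6v1e1 the SD between its probe sets was 1.07 in the late comparison and 0.98 over the whole course, above these errors. Variation between cultures is not part of the technical error. With bulk RNA a change in the number of cells of a type cannot be told apart from a change in RNA per cell.

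The deposited medians were unequal, 36.7 on the 0 h array, 60.9 on the 24 h array and 62.7 on the 72 h array. The log2 signals of each array were therefore centred on the median of all gene probe sets, and a scaled signal below is on the mean scale of the 3 arrays. Scaled signals under a floor of 29.6 (40th percentile over all arrays) were set to it in differences. Each gene is represented by its brightest probe set unless another is named. Osteoclast markers went with the labels: 8 of 9 listed genes had a probe set, and their summed scaled signal was 1853, 8117 and 31842 at 0, 24 and 72 h. The 8 macrophage markers summed to 32201, 18519 and 20949.5 at those times, the 6 neutrophil markers to 8289, 5179 and 539, and the 5 measured platelet markers to 8824, 1719 and 800.3. Stromal and osteoblast markers, 5 of 7 with a probe set, summed to 2641, 2986 and 9297, so they were high on the same array as the V1 genes, and their part in the V1 values was not tested. All 5 B and T cell markers with a probe set were under the floor on all 3 arrays.

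**Figure D1:**
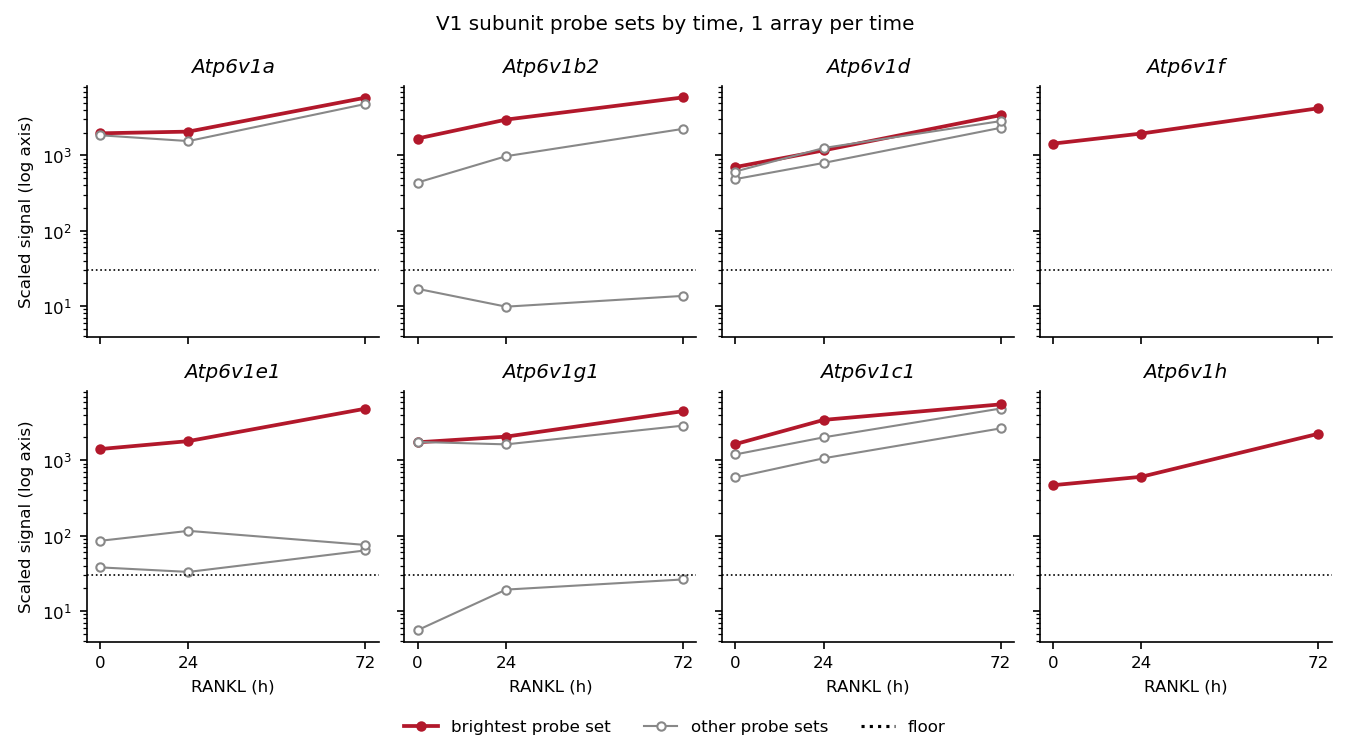
Scaled signal (log axis) of all 19 V1 probe sets against hours of RANKL, 1 panel per gene and 1 array per time; red lines are the brightest probe set of a gene, grey lines its other probe sets, and the dotted line is the floor of 29.6. Every red line ends highest at 72 h, and the dim grey lines of Atp6v1b2, Atp6v1e1 and Atp6v1g1 stay near or under the floor or within 2-fold.

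The subunits of the catalytic head differed at 24 h. Atp6v1a encodes the subunit that hydrolyses ATP, and its probe set 1422508_at had scaled signals of 1954, 2059 and 5809 at 0, 24 and 72 h. The first 2 arrays were level and the 72 h array was high. Its log2 difference was 0.07 for 24 h against 0 h, a difference smaller than the technical error, and 1.50 for 72 h against 24 h. The other Atp6v1a probe set had signals of 1842, 1542 and 4789, with log2 differences of -0.26 and 1.64. Both probe sets were high at 72 h alone, and the sign of the 24 h difference of Atp6v1a also turned with quantile or trimmed mean scaling.

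Atp6v1b2 encodes the B subunit found in most cells, which binds nucleotide beside A without turning it over. Its probe set 1415814_at had scaled signals of 1668, 2972 and 5858 at 0, 24 and 72 h. Each array was higher than the one before it, with log2 differences of 0.83 for 24 h against 0 h and 0.98 for 72 h against 24 h. A dimmer probe set of the gene had signals of 435, 971 and 2239 and log2 differences of 1.16 and 1.20. Its remaining probe set, 1449649_at, was under the floor on all 3 arrays at 16.9, 9.78 and 13.6 and gave no difference. Within the 24 h against 0 h comparison Atp6v1b2 lay 0.76 above Atp6v1a on the log2 scale, a gap that any single factor per array leaves as it is.

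The upstream sequences of 2 members are shown because both genes passed 2-fold at 72 h against 0 h and because 1 of them holds a motif of the MiT family, basic helix-loop-helix factors such as Mitf and Tfeb that bind the letters CACGTG and, in related sites, also bind the letters CATGTG, and are known regulators of lysosomal and osteoclast genes. RefSeq promoter windows on GRCm38.p6, which run from 250 bases before to 50 after an annotated start, were at hand for 4 of the 8 genes. Printed are the 250 bases before the start, 5′ to 3′ on the minus strand for both genes, with capitals marking any match to CACGTG and to the longer form TCACGTG on either strand, which contains the shorter one.
Atp6v1a: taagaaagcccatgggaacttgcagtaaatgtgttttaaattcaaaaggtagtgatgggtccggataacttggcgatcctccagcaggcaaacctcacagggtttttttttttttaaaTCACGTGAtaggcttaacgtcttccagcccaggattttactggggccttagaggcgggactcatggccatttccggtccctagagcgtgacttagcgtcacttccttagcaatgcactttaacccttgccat
Atp6v1d: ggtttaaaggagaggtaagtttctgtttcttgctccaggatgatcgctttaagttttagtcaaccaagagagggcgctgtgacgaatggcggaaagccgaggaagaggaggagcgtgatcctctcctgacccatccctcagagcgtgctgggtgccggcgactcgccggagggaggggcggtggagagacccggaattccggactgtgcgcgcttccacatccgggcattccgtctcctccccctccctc
The Atp6v1a stretch is chr16:44139260-44139509 and the Atp6v1d stretch is chr12:78861639-78861888. In both genes the annotated span reaches further upstream than the window's own start, by 443 bases in Atp6v1a and 370 in Atp6v1d, so other annotated transcripts begin elsewhere. Both strands were searched for each of the 3 motifs, and CACGTG reads the same on either strand. CACGTG was found in 1 of the 4 windows, that of Atp6v1a, from -131 to -126 counted from the start, within TCACGTG on each strand, and it was in 7.15% of all 32851 windows. CATGTG was in none of the 4 windows and in 14.2% of all, and TCACGTG was in 1 of 4 and in 3.77% of all. The windows of Atp6v1d, Atp6v1e1 and Atp6v1f hold none of these letters, and nothing about a factor can be read from that. GC content was 45.3% in the Atp6v1a window, 51.7% in that of Atp6v1e1, 56.3% in that of Atp6v1f and 59.7% in that of Atp6v1d, with a median of 52.7% over all windows. The factors themselves were measured: Mitf had scaled signals of 485, 1808 and 593 at 0, 24 and 72 h, Tfeb 147, 121 and 87.5, and Tfec 497, 572 and 691. Mitf was high on the 24 h array, by its brightest probe set.

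The central rotor genes were highest at 72 h. Atp6v1d, whose product forms the shaft that turns inside the head, had scaled signals of 697, 1161 and 3410 at 0, 24 and 72 h by its probe set 1416952_at. Its log2 difference was 0.74 for 24 h against 0 h and 1.55 for 72 h against 24 h. The other 2 Atp6v1d probe sets had signals of 482, 791 and 2313, and of 608, 1248 and 2839. All 3 probe sets were lowest at 0 h and highest at 72 h, and their differences for 72 h against 0 h had a mean of 2.26 and an SD of 0.03 (n = 3 probe sets of the same RNA, which are not replicates). Atp6v1d stood 172nd from the top among 8558 measured genes in that comparison. Atp6v1f, the small subunit bound to D in the rotor, had 1 probe set with signals of 1426, 1941 and 4202, and was 1.36-fold higher at 24 h than at 0 h and 2.16-fold higher at 72 h than at 24 h.

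The probe sets of the peripheral stalk genes differed in the size of the increase at 72 h against 0 h. Atp6v1e1, the stalk subunit E, had scaled signals of 1404, 1791 and 4826 at 0, 24 and 72 h by its probe set 1449712_s_at, whose suffix marks probes shared by several transcripts. This probe set was high at 72 h, with log2 differences of 0.35 for 24 h against 0 h and 1.43 for 72 h against 24 h. The 2 other Atp6v1e1 probe sets, annotated to the same expressed sequence tag as the bright one, were dim, at 37.8, 32.9 and 63.5 for 1420038_at and at 85.1, 115 and 75.0 for 1449711_at. Their log2 differences for 72 h against 0 h were 0.75 and -0.18, so 2 of 3 probe sets of Atp6v1e1 did not reach 2-fold, and the Atp6v1e1 increase rests on 1 probe set.

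Atp6v1g1, which pairs with E in the stalk, had the smallest difference of the 8 genes for 72 h against 0 h when each gene was read from its brightest probe set. With the mean of probe sets Atp6v1e1 was smaller, at 0.78 against 1.44 for Atp6v1g1. Its probe set 1423255_at had scaled signals of 1727, 2054 and 4472 at 0, 24 and 72 h. A second bright probe set, 1423256_a_at, had 1747, 1621 and 2873 and did not reach 2-fold in any comparison, with a log2 difference of 0.72 for 72 h against 0 h beside 1.37 for 1423255_at. Both were highest at 72 h, and they disagreed on whether 24 h was above or below 0 h, at 0.25 and -0.11; with quantile normalization the gene's value was -0.04. The remaining Atp6v1g1 probe set was under the floor on all arrays, at 5.54, 19.2 and 26.1.

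By their brightest probe sets, the subunits that join V1 to V0 sat at opposite ends of the late differences. Atp6v1c1 encodes subunit C, which bridges the stalks and is released when the sectors come apart. Its probe set 1419545_a_at had scaled signals of 1632, 3426 and 5505 at 0, 24 and 72 h. It was the V1 gene with the largest difference for 24 h against 0 h, 1.07, and the smallest for 72 h against 24 h, 0.68. The other 2 Atp6v1c1 probe sets had signals of 1191, 2011 and 4850, and of 589, 1061 and 2643, and their log2 differences were 0.76 and 0.85 for 24 h against 0 h and 1.27 and 1.32 for 72 h against 24 h. All 3 probe sets were higher at each later time, but only 1 of them placed more of the increase before 24 h than after it. With the mean of probe sets the late difference of Atp6v1c1 was 1.09 and no longer the smallest, with Atp6v1e1 at 0.59.

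Atp6v1h encodes subunit H, a regulator that is needed for proton pumping by the assembled enzyme and holds back ATP hydrolysis in free V1. Its only probe set, 1415826_at, had scaled signals of 465, 602 and 2243 at 0, 24 and 72 h. The 72 h array stood far above the others: the log2 difference was 0.37 for 24 h against 0 h, beside a technical error of 0.41 over all such genes and 0.33 in the brightest 25%, and 1.90 for 72 h against 24 h, the largest late difference of the 8 genes and 135th from the top among 8391 measured genes. Atp6v1h and Atp6v1d had the largest differences for 72 h against 0 h, 2.27 and 2.29, which are closer to each other than the technical error.

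**Figure D2:**
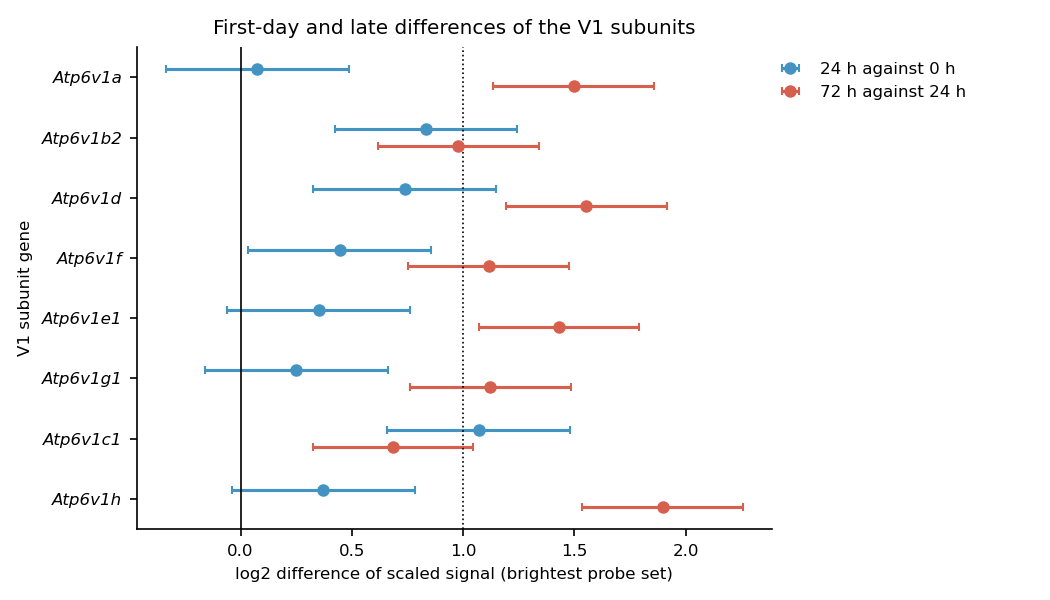
Log2 difference of scaled signal for the brightest probe set of each V1 gene at 24 h against 0 h (blue) and 72 h against 24 h (red), with bars of 1 technical SD (0.41 and 0.36) and a dotted line at 2-fold. Red lies right of blue in 7 of 8 genes, and Atp6v1c1 is the exception.

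Early differences spread over 0.07 to 1.07 on the log2 scale among the 8 genes, a range of 1.99-fold, with an SD across genes of 0.33 beside a technical error of 0.41 over all such genes and 0.33 in the brightest 25%. Counted over probe sets, 3 of 17 measured V1 probe sets were at least 2-fold higher at 24 h against 0 h, against 13.5% of all measured probe sets, and 1 of 8 genes, against 13.2% of all measured genes, with 9.22% of genes lower. This share is near the background. The 3 probe sets belonged to Atp6v1b2, Atp6v1c1 and Atp6v1d. All 8 probe sets of these 3 genes that were above the floor on every array had log2 differences between 0.71 and 1.16, and the 9 such probe sets of the other 5 genes lay between -0.26 and 0.44. These ranges leave out 1 probe set each of Atp6v1b2 and Atp6v1g1 that was under the floor. The grouping was made after seeing these values, so the gap between the groups follows in part from that choice and has no test. Medians of the 8 genes and of all measured genes were 0.41 and 0.12.

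The early count depended on how the arrays were scaled. On the deposited scale 6 of 8 V1 genes passed 2-fold at 24 h against 0 h, beside 39.0% of all measured genes. With quantile or trimmed mean scaling 0 did, beside 10.1% and 9.13%. A scaling with 1 factor per array leaves the order of the genes as it is, so of the scalings tried only quantile normalization could alter it. The order did depend on the probe set rule: with the mean of probe sets, which takes in those under the floor, Atp6v1b2 had an early log2 difference of 0.40, below Atp6v1g1 at 0.64 and Atp6v1f at 0.44.

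Late differences were between 0.68 and 1.90, with a median of 1.28 for the 8 genes and -0.14 for all measured genes. At least 2-fold higher were 6 of 8 V1 genes, against 6.92% of measured genes, and 12 of 17 measured probe sets, against 7.78%. None of the 8 genes was at least 2-fold lower, against 10.0% of measured genes. Atp6v1b2 missed 2-fold narrowly at 1.97-fold and Atp6v1c1 had 1.61-fold. Over both steps together 14 of 17 measured V1 probe sets were at least 2-fold higher at 72 h against 0 h, against 14.1% of all measured probe sets; the 3 others were the 2 dim Atp6v1e1 probe sets and 1423256_a_at of Atp6v1g1. The 8 genes exceeded 92.7% to 98.0% of measured genes in that comparison.

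The late difference was larger than the early one in 7 of 8 V1 genes and in 15 of 17 of their probe sets above the floor on all arrays. Among the 888 genes that were at least 2-fold higher at 72 h against 0 h and above the floor on every array, 39.4% had a larger late than early difference. The count was 5 of 8 V1 genes on the deposited scale (18.8% of such genes), 6 of 8 with hybridization control scaling (35.2%), 7 of 8 with trimmed mean scaling (47.9%) and 8 of 8 with quantile normalization (44.3%).

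**Figure D3:**
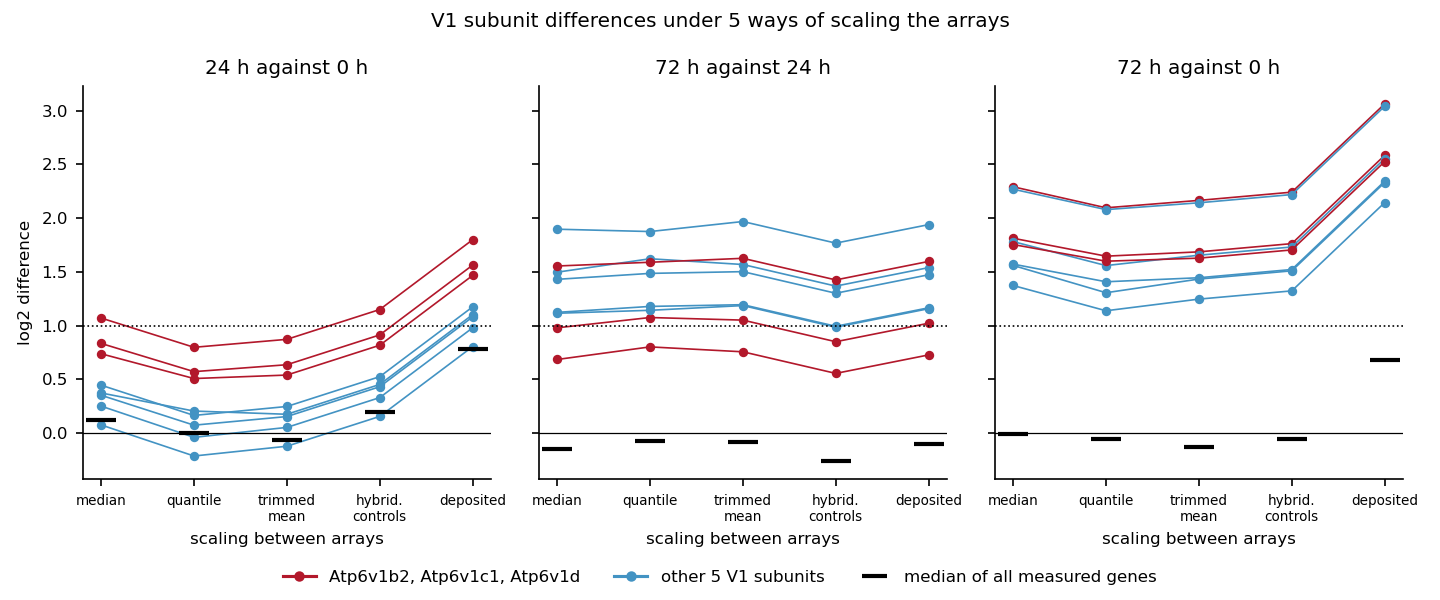
Log2 difference of each V1 gene in the 3 comparisons under 5 ways of scaling the arrays, with Atp6v1b2, Atp6v1c1 and Atp6v1d in red, the other 5 genes in blue, the median of all measured genes as a black dash and a dotted line at 2-fold. At 72 h against 0 h all 8 genes lie above the dotted line under all 5 scalings, beside 10.4% to 35% of all measured genes. At 24 h against 0 h 6 genes do so on the deposited scale, beside 39%. With quantile or trimmed mean scaling 0 do, beside 10.1% and 9.13%.

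V1 has further isoforms made mainly in particular tissues, such as Atp6v1b1 of kidney and inner ear. Of 5 such genes 4 had a probe set, and Atp6v1b1, Atp6v1c2 and Atp6v1g2 were under the floor on all 3 arrays. Atp6v1e2, the testis form of subunit E, had scaled signals of 21.7, 26.1 and 31.8 at 0, 24 and 72 h and crossed the floor at 72 h alone.

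The membrane sector V0, through which the protons pass, and the accessory subunits were mixed. Of 12 listed genes 10 had a probe set and 9 were measured; Atp6v0c and Atp6v0d2 were not analysed here. By the 2-fold rule 3 of 9 stood higher and 2 lower at 72 h against 0 h. Of all measured genes 12.5% were higher and 12.8% lower. The median log2 difference was 1.77 for V1, against 0.52 for the V0 and accessory genes. This list keeps alternative isoforms and accessory genes, whereas the V1 isoforms made mainly in particular tissues were listed apart. The medians of V1 and of these genes therefore come from unlike lists. On the deposited scale 6 of 9 were higher and 2 lower, beside 35% of all measured genes higher. The medians on that scale were 2.54 for V1, 1.29 for these genes and 0.68 for all measured genes. With quantile normalization the medians were 1.58 for V1, against 0.27. Tcirg1, which encodes the a3 subunit that carries the pump to the ruffled border, had scaled signals of 1262, 1404 and 3663 at 0, 24 and 72 h. Atp6v0e, a small membrane subunit, had signals of 1205, 2499 and 4705 and Atp6v0b, a proteolipid of the rotating ring, 2014, 2293 and 4782. Atp6v0d1, on which the rotor shaft sits, had 1581, 969 and 1900 and was 1.20-fold higher at 72 h than at 0 h. The accessory genes Atp6ap1 and Atp6ap2 had log2 differences of 0.52 and 0.98 in that comparison. The 2 genes that were lower ended under the floor: Atp6v0a1, an alternative a subunit, had 390, 47.0 and 4.71 at 0, 24 and 72 h and was lower by a factor of at least 13.2, and Atp6v0e2 by at least 3.52. The 3 other Atp6v0a1 probe sets had scaled signals of 49.2 or less on every array and stayed within 2-fold in each comparison where they were measured. At 72 h against 24 h 3 of 9 were higher and 1 lower (median 1.28 for V1, against 0.91 here). Of all measured genes 6.92% were higher and 10.0% lower. At 24 h against 0 h 1 of 9 was higher and 1 lower, near the 13.2% and 9.22% of all measured genes. The V0 and accessory median was 0.09, against 0.41 for V1, and was below 0 with quantile or trimmed mean scaling. The difference between V1 and V0 was not tested, since each time has 1 array.

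**Figure D4:**
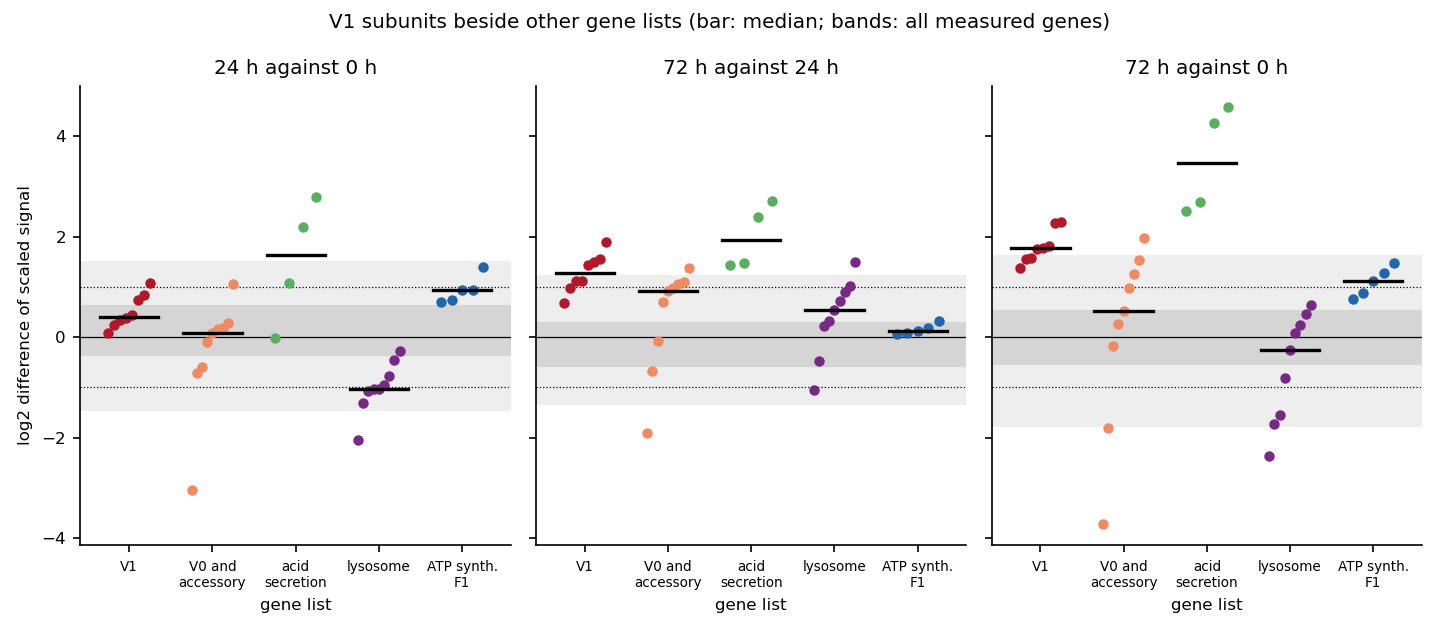
Log2 difference of scaled signal for V1 genes, V0 and accessory subunits, acid secretion partners, lysosomal genes and ATP synthase F1 subunits in the 3 comparisons; points are genes, black bars list medians, and the grey bands hold the middle 50 and 90% of all measured genes. At 72 h against 0 h the V1 points lie between 1.37 and 2.29 while the V0 points run from -3.72 to 1.96, and values that reached the floor are bounds.

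Genes that work beside the pump in acid secretion were also higher at 72 h. All 4 with a probe set passed 2-fold at 72 h against 0 h (median log2 difference 3.48), beside 12.5% of all measured genes. Clcn7, the chloride and proton exchanger that balances the charge moved by the pump, was level until 24 h, as Atp6v1a was, with scaled signals of 161, 158 and 1031 at 0, 24 and 72 h by its brightest probe set. Its other probe set, at 66.1, 37.1 and 109, was 1.78-fold lower at 24 h than at 0 h. At 72 h against 0 h that probe set was 1.66-fold higher and so did not reach 2-fold. Car2, the carbonic anhydrase that supplies protons, had 75.4, 522 and 1457, and Slc4a2, the bicarbonate exchanger of the opposite membrane, 342, 717 and 1945. Slc9b2, a sodium and proton exchanger, had 105, 483 and 2519. At 24 h against 0 h 1 of 8 V1 genes and 3 of these 4 genes were at least 2-fold higher, beside 13.2% of all measured genes. The V1 count was 6 of 8 on the deposited scale, beside 39% of all measured genes, and the partner count stayed at 3 of 4. With quantile or trimmed mean scaling the counts were 0 of 8 V1 genes and 2 of 4 partners. The shares of all measured genes were then 10.1% and 9.13%.

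The listed lysosomal genes, which share the acid compartments of the pump, had medians below 0 at 24 h against 0 h under all 5 scalings. At 72 h against 0 h their median was above 0 on the deposited scale alone. The list is not complete. Ctsk and Acp5, also lysosomal enzymes, were counted among the osteoclast markers instead and were 50.7-fold and 9.48-fold higher at 72 h against 0 h. By their brightest probe sets, 3 of 9 measured were 2-fold lower and 0 higher at 72 h against 0 h, with a median of -0.25. Of all measured genes 12.8% were lower and 12.5% higher. On the deposited scale 1 of the 9 was lower and 3 higher, beside 35% of all measured genes higher. The median on that scale was 0.52, against 0.68 for all measured genes. At 24 h against 0 h 5 of 9 were lower (median -1.03), beside 9.22% of all measured genes. The count was 1 of 9 on the deposited scale (median -0.30) and 2 of 9 with hybridization control scaling (median -0.95). Lamp1, a major lysosomal membrane protein, had scaled signals of 7078, 2868 and 1374 at 0, 24 and 72 h. At 72 h against 0 h dimmer probe sets of Gusb and Mcoln1 were 4.36-fold and 2.10-fold higher, and some of Lamp2 and Lipa were 2-fold lower. At 72 h against 24 h 2 of 9 genes were higher and 1 lower by the 2-fold rule, beside 6.92% and 10.0% of all measured genes. The higher ones included Hexa, the alpha subunit of a lysosomal hexosaminidase, at 4198, 2047 and 5784. Dimmer Ctsb probe sets were up to 9.62-fold higher in that comparison, after being up to 8.87-fold lower at 24 h against 0 h.

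The F1 head of the mitochondrial ATP synthase, a distant relative of V1 that runs in the direction of ATP synthesis, had its larger difference early. At 24 h against 0 h the median log2 difference was 0.41 for V1, against 0.94 for the 5 F1 genes. At 72 h against 24 h it was 1.28 for V1, against 0.12 for F1; the late F1 median was -0.01 with hybridization control scaling. Atp5b, its catalytic beta subunit, had scaled signals of 1598, 4212 and 4478 at 0, 24 and 72 h.

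Likeness to V1 was measured as the Euclidean distance between a gene's log2 differences (24 h against 0 h, 72 h against 24 h) and the V1 medians of 0.41 and 1.28, over 3 arrays and 7149 genes outside the V-ATPase lists. The nearest was Tfrc, the transferrin receptor that takes up iron, at a distance of 0.0018 and with scaled signals of 1664, 2206 and 5340 at 0, 24 and 72 h. Next came Igfbp7 (0.031), a secreted protein that binds growth factors, Ctbs (0.075), a lysosomal chitobiase, Hint3 (0.091), Fkbp7 (0.098), a prolyl isomerase, and Gucd1 (0.10). Among the V1 genes Atp6v1e1 lay nearest to the medians, at 0.16, with 11 outside genes nearer than it, and Atp6v1c1 farthest, at 0.89, with 592 nearer. With 3 arrays such a likeness rests on 2 differences, and many genes share it. The technical errors of these 2 differences, 0.41 and 0.36, exceed the distances of all the outside genes named, so their order is not resolved.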

How the data were processed

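Total RNA of 3 cultures was hybridised as biotin-labelled cRNA, from 5 µg of RNA per the labels' protocols, to 1 Affymetrix array per time. The deposited values are intensity signals on a linear scale, made by the authors with MAS5 per the submitters' processing notes; its version and scaling target are not given in the sources used here. Of 22690 probe sets, 64 controls were set aside. The platform annotation of 2016 gave 1 symbol to 20380 of the other 22626, several to 691 and none to 1555, and the identifiers of all 8 V1 genes matched RefSeq. Log2 signals were median-centred per array, floored at the 40th percentile, and compared between times; a gene with either array above the floor counted as measured, and 2-fold or more (log2 of 1) as higher or lower. With 1 array per time no test was possible, and precision is limited by that number. The members and gene lists, and the rule for named genes (all members, the listed partners and the 6 nearest genes), were chosen with earlier results of these data known. Other scalings, floors and probe set rules were tried, and the code was tested on simulated data. Python 3.11.15, NumPy 2.4.6, pandas 2.3.3 and Matplotlib 3.10.9 were used.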

Additional observations from a re-analysis of the deposited data

How the results depend on the processing

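No paired analysis was possible because each time has 1 array and the labels carry no replicate numbers. Scaling, floor and probe set rules were varied 1 at a time over 9 alternatives; hybridization control scaling, over 18 control probe sets, was added after seeing the data. The count of V1 genes at least 2-fold higher at 24 h against 0 h, 1 of 8 beside 13.2% of all measured genes, was 6 on the deposited scale, beside 39%. It was 0 with quantile normalization (10.1% of all genes), trimmed mean scaling (9.13%) and the mean of probe sets (12.9%). Without probe sets whose suffix marks several transcripts it was also 0 (13.6%). The corresponding count of V1 probe sets was 3 of 17, beside 13.5% of all measured probe sets. That count was 12 on the deposited scale, 0 with quantile normalization, 0 with trimmed mean scaling and 0 of 11 without multi-transcript probe sets. Shares of all probe sets under those settings are not given here. The V1 median on the deposited scale was 1.14 for 24 h against 0 h and 2.54 for 72 h against 0 h, where that scale adds the unequal array medians. Without multi-transcript probe sets, which leaves fewer to count, 9 of 11 probe sets were higher at 72 h against 0 h, beside 12.5% of measured genes. Atp6v1e1, left with its dim probe sets, changed sign to -0.62 for 72 h against 24 h and -0.18 for 72 h against 0 h. At 72 h against 24 h 4 to 7 of 8 genes were at least 2-fold higher, beside 5.8% to 12% of all measured genes, with V1 medians of 1.10 to 1.35. For 72 h against 0 h 7 or 8 genes were, beside 10.4% to 35%. In 0 of these settings was a V1 gene at least 2-fold lower. Of 72 single-gene values for 72 h against 0 h, 71 stayed above 0. Where no value is given for a change, the cause was not tested. The 2 V1 probe sets that gave no difference were under the floor on all 3 arrays.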

Other observations

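Genes whose products help to assemble the V-ATPase or to place it in the cell were read from a list of 10, of which 5 had a probe set. By the 2-fold rule 1 of the 5 was higher and 0 lower at 72 h against 0 h. Of all measured genes 12.5% were higher and 12.8% lower. The median log2 difference was 1.77 for V1, against 0.72 for the 5 genes. On the deposited scale 4 of the 5 were higher, beside 35% of all measured genes. The medians on that scale were 2.54 for V1, 1.49 for these genes and 0.68 for all measured genes. The gene that was higher on the median-centred scale was Snx10, a sorting nexin that osteoclasts need to resorb bone and that binds the V-ATPase, with scaled signals of 643, 1279 and 4781 at 0, 24 and 72 h, 7.44-fold higher at 72 h than at 0 h. Aldoa, a glycolytic enzyme that binds V1 and V0, had 3793, 5318 and 7090. Dmxl1, of the complex that rejoins V1 to V0, had 79.4, 89.7 and 131, and Rogdi, of the same complex, 196, 298 and 220.2. Rab7, the late endosomal GTPase that directs vesicles to the ruffled border, had 2340, 1933 and 2815.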
